A study of Homo sapiens with 12 samples.

Results

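The genes described here encode 10 proteins that are known to bind G-rich promoter DNA or G-quadruplexes: SP1, SP3, MAZ, YY1, CNBP, NCL, NPM1, NME2, PARP1 and ATRX. They were taken by name from the gene column of the RNA tables, and all 10 were found among 58083 gene rows. The RNA came from HEK 293T, an established human cell line of embryonic kidney origin that expresses the large T antigen of SV40. Cells received DMSO, the solvent control, for 3 h, or 1 µM of a small molecule named PDP for 3 h, 24 h or 72 h, with 2 samples in each of these 4 groups. Another 4 samples were a pull-down from annealed genomic DNA and its input. The tables give 1 FPKM value (fragments scaled by transcript length and library total) per gene and condition, pooled over both samples, so no value of a single library, no SD between samples and no depth per library can be given. The titles number the samples of each group bio1 and bio2 and say nothing more of separate cultures. The p-values thus measure at most the spread between these samples, and how the authors' test estimated them is not stated.

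A G-quadruplex forms where runs of guanine lie close together on a DNA strand, a sequence pattern common just before gene starts. SP1 and SP3 are zinc finger transcription factors that bind the GC box of housekeeping promoters, MAZ is a zinc finger factor of GA-rich elements, and YY1 is a zinc finger factor that both activates and represses. CNBP unfolds G-rich nucleic acid, NCL (nucleolin) and NPM1 (nucleophosmin) are abundant nucleolar proteins with DNA-binding activity at such sites, NME2 is a nucleoside diphosphate kinase described at the MYC promoter, PARP1 is the main poly(ADP-ribose) polymerase, and ATRX is a chromatin remodeller of repetitive G-rich DNA.

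Many of the promoters of these genes are themselves rich in guanine and cytosine runs. The following sequences show this for CNBP, which was the gene called with PDP, and for PARP1, whose locus held a high-scoring pull-down peak close to its 5′ end. They also show it for YY1 and MAZ, which had the highest GC content among genes with a single listed start. Each is the stretch of 250 bases before the transcription start in RefSeq (GRCh38.p14), written 5′ to 3′ on the strand of the gene, and capitals mark every run of at least 3 G or 3 C. CNBP lies at chr3:129183897-129184146 (minus strand), PARP1 at chr1:226408094-226408343 (minus strand), YY1 at chr14:100238894-100239143 (plus strand) and MAZ at chr16:29806279-29806528 (plus strand).
CNBP: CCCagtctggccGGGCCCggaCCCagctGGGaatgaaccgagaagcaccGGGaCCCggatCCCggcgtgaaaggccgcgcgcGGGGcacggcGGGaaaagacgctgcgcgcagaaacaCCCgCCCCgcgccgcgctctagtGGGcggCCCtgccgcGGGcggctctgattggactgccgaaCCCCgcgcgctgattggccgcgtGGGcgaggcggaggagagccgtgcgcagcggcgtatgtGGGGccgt
PARP1: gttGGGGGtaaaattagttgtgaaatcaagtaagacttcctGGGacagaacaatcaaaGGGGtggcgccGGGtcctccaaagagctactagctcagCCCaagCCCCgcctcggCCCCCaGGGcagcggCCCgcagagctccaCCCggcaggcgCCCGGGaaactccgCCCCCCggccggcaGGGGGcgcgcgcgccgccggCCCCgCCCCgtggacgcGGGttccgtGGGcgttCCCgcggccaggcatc
YY1: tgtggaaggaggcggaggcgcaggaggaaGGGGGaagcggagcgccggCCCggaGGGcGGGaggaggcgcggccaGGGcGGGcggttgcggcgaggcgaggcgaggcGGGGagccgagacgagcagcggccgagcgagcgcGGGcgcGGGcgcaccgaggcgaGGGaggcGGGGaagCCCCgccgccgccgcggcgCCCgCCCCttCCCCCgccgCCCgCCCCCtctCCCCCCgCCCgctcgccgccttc
MAZ: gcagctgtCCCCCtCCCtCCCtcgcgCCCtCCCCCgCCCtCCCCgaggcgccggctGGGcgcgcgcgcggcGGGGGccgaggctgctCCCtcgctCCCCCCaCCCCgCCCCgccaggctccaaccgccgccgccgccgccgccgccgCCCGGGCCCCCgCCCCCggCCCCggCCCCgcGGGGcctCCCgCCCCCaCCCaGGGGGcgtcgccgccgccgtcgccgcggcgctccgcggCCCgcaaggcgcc

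Runs covered 58 of 250 bases for CNBP, 70 for PARP1, 70 for YY1 and 98 for MAZ, against a median of 37 over all 35116 RefSeq windows. RefSeq windows were given for 9 members, 15 windows in all and some of them overlapping, and ATRX had none. Over the full windows (250 bases before to 50 after the start) the members' GC content ran from 47.7% to 88.0% with a median of 70.0%, and the median of all windows was 58.7%. Their bases in runs went from 37, in a window of NME2, to 121, in that of MAZ. The median was 64, against 43 over all full windows. The GC box core GGGCGG, searched on both strands, was in 13 of the 15 windows (8 of 9 genes) and in 45.0% of all windows. NPM1 was the gene without it. GGGAGG, the letters searched for MAZ, were in 10 of 15 windows and in 49.3% of all windows. CCATNTT, searched for YY1, was in 1 window, of SP1, and in 15.6% of all windows. A quadruplex pattern, 4 runs of GGG with gaps of 1 to 7 bases on either strand, was in 6 of 15 windows, those of SP1, SP3, MAZ, YY1 and NME2, and in 24.9% of all windows. These patterns can overlap each other, and a match describes letters and not a bound site.

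In control cells the 10 genes fell into an abundant and a moderate set. NPM1 was the most abundant at 2468 FPKM in the 3 h table, followed by NME2 at 748, NCL at 515, CNBP at 392, PARP1 at 365 and MAZ at 343 FPKM. Each of these 6 lay above at least 98.4% of 13394 expressed genes (geometric mean FPKM of both conditions of at least 1). The other 4 genes were lower, with SP1 at 42.4, SP3 at 36.3, YY1 at 35 and ATRX at 25.2 FPKM, at percentiles from 68.8 to 81.4. FPKM is a level per transcript length, so the genes may be set in this order, but without values of single libraries it cannot be said which neighbours, such as CNBP and PARP1 or SP3 and YY1, differ beyond their spread. NPM1 and NME2 were the highest of the 10 in each condition, while CNBP with PDP stood below PARP1 at 24 h and above NCL at 72 h, as the plot of levels shows.

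**Figure D1:**
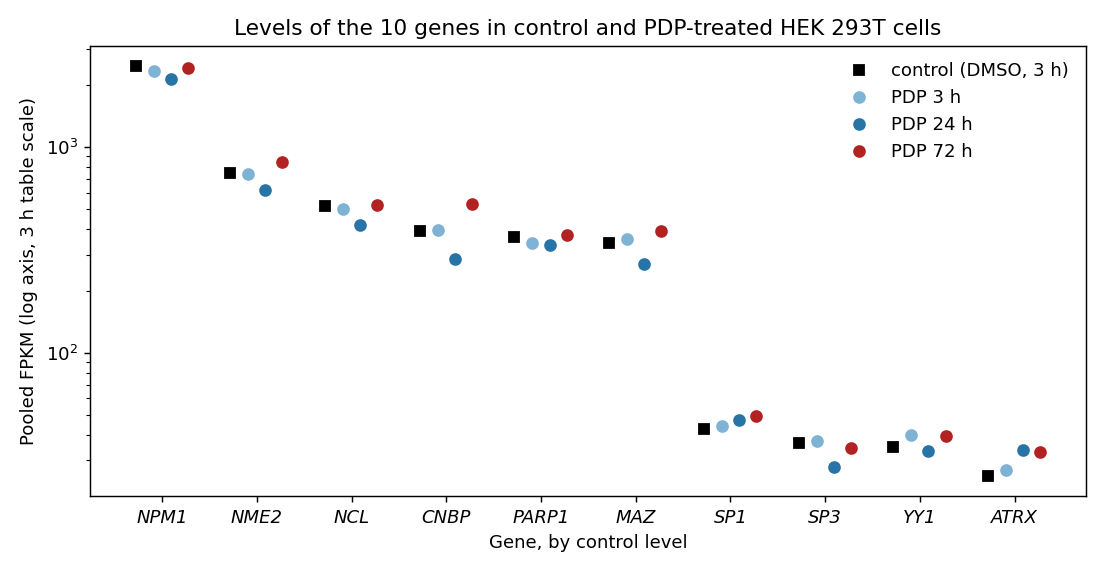
Pooled FPKM of the 10 genes on a log axis, ordered by control level; black squares are the control and circles PDP at 3 h, 24 h and 72 h, with the 24 h and 72 h values divided by the ratio of that table's control to the 3 h control. NPM1 sits highest (2468 FPKM in the control) and ATRX lowest (25.2 FPKM), and CNBP shows the widest gap between the 24 h and 72 h circles.

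The 24 h and 72 h tables carry the same control as the 3 h table, multiplied by 1.04 and 0.968 (SD on the log2 scale 0.000842 and 0.000859 over 13455 genes), so their comparisons share control samples and include any change over time in culture. Of the HEK 293T markers VIM, KRT8, KRT18, PAX2, NEFL, NEFM and LHX1, PAX2 was lowest in the control at 0.896 FPKM and VIM highest at 259 FPKM, and 4 of 7 were called higher at 24 h and 6 of 7 at 72 h in the authors' deposited tables. Of 7 markers of other cells, HBB was listed at 0 in every table, MYH6 at 0 in the control, and PTPRC, CD3E and ALB did not exceed 0.389 FPKM. EPCAM had 1.39 FPKM and COL1A1 12.6 FPKM in the control. EPCAM was called higher at 72 h (1.34 to 2.42 FPKM, q = 0.0370 in the authors' deposited table), and no other of these 7 was called at any time. The summed level of these 7 was 13.6 to 14.6 FPKM in the control, 11.0 with PDP at 3 h, 24.7 at 24 h and 25.6 at 72 h, and its part in the results below was not tested. Scaling each condition to equal FPKM sums would add 0.05 at 3 h, 0.17 at 24 h and -0.10 at 72 h to every log2 fold change.

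At 3 h none of the 10 genes was called. "Called" here means a q-value under 0.05 in the authors' deposited table, which called 0.115% of 14751 tested genes. No member had an unadjusted p under 0.05 there, and none was called when a normal p was taken from the deposited statistic. Log2 fold changes (PDP over control, from the pooled FPKM) ran from -0.09 for PARP1 (365 to 343 FPKM) to 0.19 for YY1 (35 to 40.0 FPKM), with a median of 0.03, and the median of all expressed genes was -0.0036. YY1 had the lowest p of the 10, 0.225 in the authors' deposited table. The standard errors (SE) implied by the deposited statistic ran from 0.20 for CNBP to 0.49 for ATRX, so changes well beyond those seen lie within the intervals: for YY1 the 95% interval of the fold change was 0.813 to 1.61.

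At 24 h CNBP was lower and at 72 h it was higher than the control, and the other 9 genes were not called at either time. This compares 1 member of 10 called with 17.5% of 15385 tested genes at 24 h in the authors' deposited table (9.21% higher and 8.29% lower), and 1 of 10 with 31.8% of 15423 at 72 h (19.0% higher and 12.8% lower). At 24 h 8 of the 10 values lay below 0, with a median log2 fold change of -0.24 against -0.031 for all expressed genes. At 72 h 8 of the 10 lay above 0, with a median of 0.18 against 0.11 for all expressed genes. With equal FPKM sums 6 of 10 lay below 0 at 24 h (median -0.067) and 6 of 10 above 0 at 72 h (median 0.073), so these directions depend in part on the scaling.

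**Figure D2:**
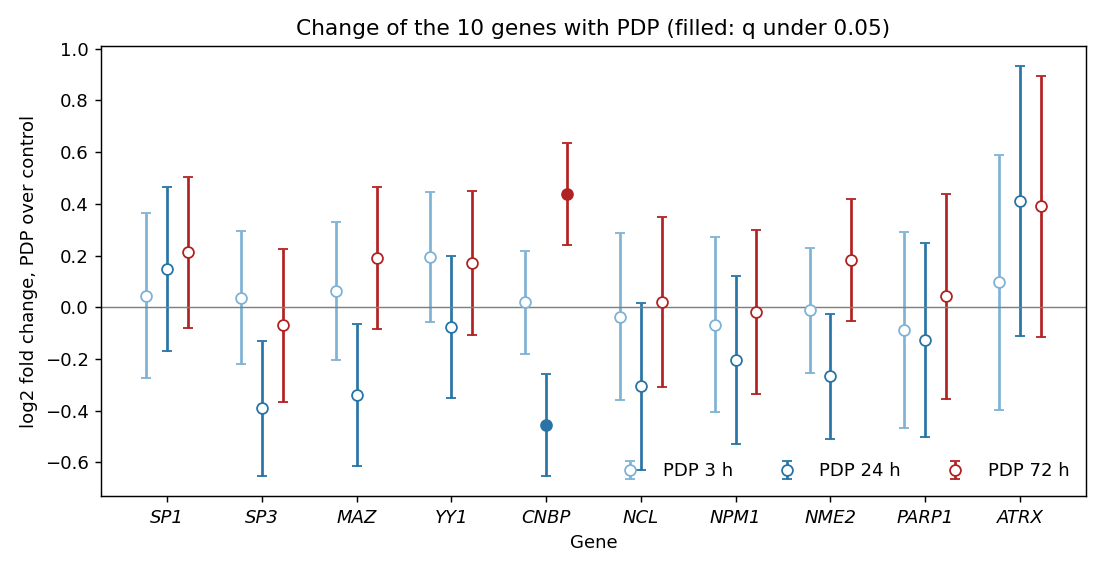
Log2 fold change of each of the 10 genes with PDP over control at 3 h, 24 h and 72 h; bars are the SE implied by the authors' statistic and filled circles mark a q-value under 0.05. CNBP has the filled circles, at -0.45 at 24 h and 0.44 at 72 h, and ATRX has the longest bars.

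CNBP (ENSG00000169714.16) is a small zinc knuckle protein of G-rich single strands. Its locus in the RNA tables (GRCh38, chromosome 3, 129169484 to 129183922) holds no other gene. It measured 392 FPKM in the control and 397 with PDP at 3 h, 407 and 297 at 24 h, and 379 and 514 at 72 h. Level with the control at 3 h, it was thus 27% lower at 24 h and 35.5% higher at 72 h. Its log2 fold change was 0.02 (SE 0.20) at 3 h. At 24 h it was -0.45 (SE 0.20), with p = 0.001 and q = 0.01001 in the authors' deposited table. At 72 h it was 0.44 (SE 0.20), with p = 0.00135 and q = 0.00666 in the authors' deposited table. Its PDP values at 24 h and 72 h, on the scale of a common control, differed by 1.86-fold, a ratio in which the shared control cancels and for which no test was made. The deposited p-values are smaller than a normal distribution gives for the same statistic, which for CNBP would be 0.0212 at 24 h and 0.0256 at 72 h. After Benjamini-Hochberg adjustment of such normal values over all genes with a statistic, CNBP stood at 0.222 and 0.130 and was not called. That rule called 3.53% of these genes at 24 h and 13.9% at 72 h. The protein-coding genes with the pattern most like that of CNBP, by Euclidean distance over the 3 log2 fold changes among 10995 expressed genes, were JMJD6 (distance 0.064) and NOC4L (0.072). JMJD6, a nuclear hydroxylase, had 24.9 and 18.7 FPKM at 24 h and 23.2 and 31.9 FPKM at 72 h. NOC4L, a ribosome assembly factor, went from 37.6 to 28.5 FPKM and from 35.1 to 46.2 FPKM. Neither was called at any time in the authors' deposited tables.

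The zinc finger factors SP1 and SP3, which share the GC box, had values on opposite sides of the control at 24 h. SP1 (ENSG00000185591.9, chromosome 12, 53380176 to 53416446) measured 42.4 and 43.8 FPKM at 3 h, 44.1 and 48.9 at 24 h, and 41.1 and 47.6 at 72 h, for control and PDP. It was above its control at all times, by 0.05, 0.15 and 0.21 on the log2 scale (SE 0.32, 0.32 and 0.29). SP3 (ENSG00000172845.13, chromosome 2, 173906459 to 173965702) measured 36.3 and 37.2 FPKM at 3 h, 37.7 and 28.8 at 24 h, and 35.1 and 33.4 at 72 h. Its 24 h change of -0.39 (SE 0.26) was the only other member value with an unadjusted p under 0.05, 0.0231 with q = 0.0995 in the authors' deposited table. The difference between SP1 and SP3 was not tested.

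The zinc finger factors MAZ and YY1 were not called at any time. MAZ (ENSG00000103495.13) measured 343 and 358 FPKM at 3 h, 356 and 281 at 24 h, and 332 and 380 at 72 h, or 0.06, -0.34 and 0.19 on the log2 scale (SE 0.27, 0.27 and 0.27). On the scale of a common control it had its lowest PDP value at 24 h and its highest at 72 h. CNBP, NCL, NPM1, NME2 and PARP1 had the same order. With equal FPKM sums only CNBP and NME2 kept it. The log2 fold changes of MAZ were then 0.12 at 3 h, -0.17 at 24 h and 0.09 at 72 h. The q-values of MAZ at 24 h and 72 h in the authors' deposited tables were 0.221 and 0.470. The MAZ locus (chromosome 16, 29806106 to 29848039) was merged with those of 8 other genes, of which MVP, the major vault protein gene, was called higher at 72 h (0.861 to 4.0 FPKM). YY1 (ENSG00000100811.11) measured 35 and 40.0 FPKM at 3 h, 36.3 and 34.5 at 24 h, and 33.9 and 38.1 at 72 h, or 0.19, -0.08 and 0.17 on the log2 scale (SE 0.25, 0.27 and 0.28). SLC25A29, a mitochondrial carrier gene in the same merged locus as YY1 (chromosome 14, 100207407 to 100306547), was called higher at 24 h (6.73 to 16.7 FPKM) and 72 h (6.29 to 17.5 FPKM) in the authors' deposited tables.

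The nucleolar pair NCL and NPM1 had small changes at high levels. NCL (ENSG00000115053.15, chromosome 2, 231453531 to 231483641) measured 515 and 502 FPKM at 3 h, 535 and 433 at 24 h, and 498 and 505 at 72 h. Its value was thus lower than the control at 24 h (-0.31, SE 0.32) and close to it at 72 h (0.02, SE 0.33). NPM1 (ENSG00000181163.13, chromosome 5, 171387116 to 171411137) measured 2468 and 2356 FPKM at 3 h, 2563 and 2225 at 24 h, and 2388 and 2360 at 72 h, below the control each time by at most 0.20 on the log2 scale (SE 0.33 at 24 h). Their lowest q-values in the authors' deposited tables were 0.322 for NCL and 0.429 for NPM1, both at 24 h.

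The enzymes NME2 and PARP1 were not called, and their furthest value from the control was -16.9%, for NME2 at 24 h. NME2 (ENSG00000243678.11) measured 748 and 742 FPKM at 3 h, 777 and 646 at 24 h, and 724 and 823 at 72 h, or -0.01, -0.27 and 0.18 on the log2 scale (SE 0.24, 0.24 and 0.24). It shares its locus (chromosome 17, 51153536 to 51171747) with NME1, a kinase of the same family, and with the readthrough gene NME1-NME2, so the split of reads among the 3 is uncertain. NME1 had 280 and 229 FPKM at 24 h and 261 and 234 FPKM at 72 h, and the readthrough gene 6.52 and 24.6 FPKM at 72 h, none of them called. PARP1 (ENSG00000143799.12, chromosome 1, 226360691 to 226408079) measured 365 and 343 FPKM at 3 h, 379 and 347 at 24 h, and 353 and 364 at 72 h. On the log2 scale its differences from the control were -0.09, -0.13 and 0.04, each well inside its SE of 0.38, 0.38 and 0.40.

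ATRX had the largest uncalled change at the later times. ATRX (ENSG00000085224.21, chromosome X, 77504878 to 77786269) measured 25.2 and 27 FPKM at 3 h, 26.2 and 34.9 at 24 h, and 24.4 and 32.0 at 72 h. It stood 33.0% above its control at 24 h and 31.1% above at 72 h, close in size to the changes of CNBP. Its SE of 0.52 and 0.50 was over 2 times that of CNBP, and its q-values in the authors' deposited tables were 0.342 and 0.286. The 95% interval of its fold change at 72 h ran from 0.660 to 2.60. On the deposited scale ATRX was also the member whose 72 h value did not exceed that at 24 h. Its log2 difference was -0.02, against 0.06 to 0.89 for the other 9 and a median of 0.11 over 12968 genes expressed in all tables. That of CNBP lay at percentile 93.5 of those genes, so CNBP was within the range of many others. With equal FPKM sums SP1, YY1, NPM1 and PARP1 also stood lower at 72 h than at 24 h. For SP1 the log2 fold changes were then 0.32 at 24 h and 0.11 at 72 h.

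A pseudogene copy of NPM1 was called where the parent gene was not. The tables hold 45 genes named as NPM1 pseudogenes, and 2 of them, NPM1P27 and NPM1P9, had at least 1 FPKM in the control or with PDP at every time. NPM1P27 (ENSG00000249353.2, in a locus on chromosome 5 from 93618069 to 94111699) went from 65.1 to 108 FPKM at 3 h, and was thereby among the 17 genes called at that time. It went from 67.6 to 143 FPKM at 24 h, while at 72 h it had 50 FPKM against 63.0. The log2 fold changes were 0.73 (SE 0.24, q = 0.0434 in the authors' deposited table), 1.08 (SE 0.22, q = 0.000908) and -0.33 (SE 0.23, q = 0.113), beside -0.07, -0.20 and -0.02 for NPM1. Its value was 2.64% of that of NPM1 in the control and 6.40% with PDP at 24 h. FAM172A, the other gene in that locus with at least 1 FPKM, had 6.62 and 5.99 FPKM at 3 h and 6.88 and 9.41 FPKM at 24 h and was not called. NPM1P9 (chromosome X, 14834476 to 14835319) was called lower at 24 h (2.78 to 0.773 FPKM) and at 72 h (2.59 to 1.21 FPKM), and NPM1P39 had 1.12 FPKM with PDP at 24 h. These copies share sequence with NPM1, so reads may be split between them, and how the authors assigned such reads is not given in the sources used here. The tables hold 2 such copies each of YY1, NCL and PARP1 and 1 of NME2, all of them under 1 FPKM.

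**Figure D3:**
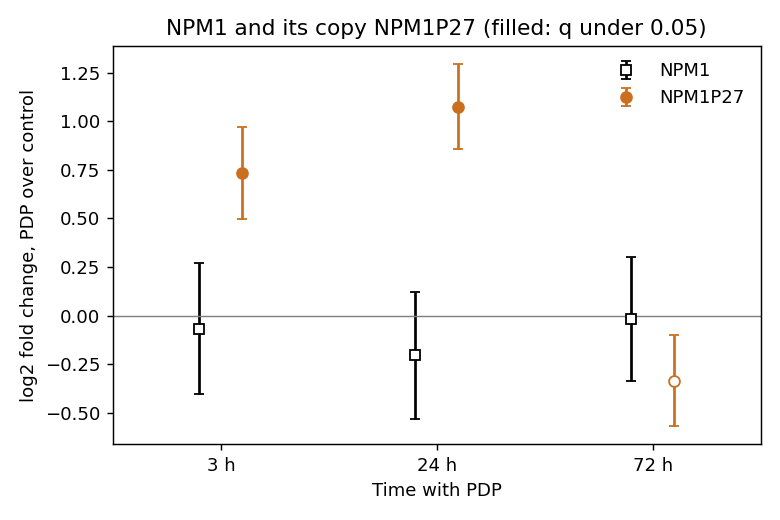
Log2 fold change of NPM1 (squares) and of its copy NPM1P27 (circles) with PDP over control by time; bars are the implied SE and filled symbols mark a q-value under 0.05. NPM1P27 lies at 0.73 and 1.08 at 3 h and 24 h and at -0.33 at 72 h, while NPM1 stays between -0.20 and -0.02.

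Several other zinc finger proteins of G-rich DNA were called lower at the later times. Of 11 tested, the authors' deposited tables called 6 lower and 0 higher at 24 h (7 lower and 0 higher at an unadjusted p under 0.05, and 2 and 0 by the normal p), and 7 lower and 0 higher at 72 h (7 and 0, and 7 and 0). That was 54.5% and 63.6% called lower, beside 8.29% and 12.8% of all tested genes. Their medians were -0.58 and -0.73 and stayed below 0 with equal FPKM sums (-0.41 and -0.84). Single values went up to 0.65 at 24 h and 0.77 at 72 h, both for ZNF219, which was not called. CTCF, the insulator protein, fell at 24 h (36.0 to 19.0 FPKM) and at 72 h (33.6 to 20.0 FPKM). PATZ1, a relative of MAZ, fell likewise (26.3 to 12.9 and 24.6 to 14.8 FPKM). WT1, the Wilms tumour factor, fell at both times (7.14 to 4.21 and 6.66 to 2.58 FPKM), as did ZBTB7A (10.0 to 6.68 and 9.33 to 4.63 FPKM). ZNF263 fell at 72 h from 23.6 to 10.2 FPKM and ZNF281 from 22.7 to 11.5 FPKM. At 3 h none was called, 1 had an unadjusted p under 0.05, and the normal p called none. That 1 was VEZF1, which was higher with PDP (16.0 to 24.8 FPKM). Its p was 0.00015 and its q 0.0962 in the authors' deposited table. The difference between this list and the 10 genes was not tested.

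The SP and KLF relatives of SP1 and SP3 went both ways. The authors' deposited tables called 8 of 18 tested at 24 h, 5 of them higher, and 10 of 18 at 72 h, 7 of them higher. That was 44.4% and 55.6%, beside 17.5% and 31.8% of all tested genes. The normal p called 3 higher and 1 lower at 24 h and 5 higher and 2 lower at 72 h. The list's medians were 0.07 and 0.13, and 0.24 and 0.02 with equal FPKM sums. KLF9, a factor induced by hormones, rose at 24 h (12 to 26.8 FPKM) and at 72 h (11.2 to 45.0 FPKM). KLF7 rose at both times (1.28 to 3.68 and 1.19 to 5.04 FPKM), and so did SP6 (0.555 to 1.60 and 0.519 to 1.73 FPKM) and KLF10, an early gene of TGF-beta signalling (10.7 to 17.0 and 9.99 to 33.3 FPKM). SP6 was under the minimum for an expressed gene at both times. KLF15 rose at 24 h from 3.55 to 10.3 FPKM and was called lower at 72 h (3.31 to 2.07 FPKM). SP9 was called lower at both times (8.92 to 4.38 and 8.33 to 2.61 FPKM), as was KLF3 (11.4 to 8.17 and 10.7 to 6.46 FPKM). At 3 h 0 of 17 tested were called, 0 had an unadjusted p under 0.05 and the normal p called 0. The most abundant relatives then were KLF16 (30.1 and 29.7 FPKM) and KLF5 (20.8 and 21.2 FPKM).

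Other proteins that bind quadruplexes or G-rich nucleic acid were called lower for 4 of 23 tested at 24 h, with 0 higher (9 and 0 at an unadjusted p under 0.05, and 1 and 0 by the normal p), and at 72 h 3 were called higher and 4 lower in the authors' deposited tables (1 and 1 by the normal p). These shares of 17.4% and 30.4% were close to the 17.5% and 31.8% of all tested genes. EWSR1, an RNA-binding protein, fell at 24 h (252 to 174 FPKM), as did the splicing regulator HNRNPF (231 to 147 FPKM). SUB1, a transcription cofactor, fell from 140 to 99.0 FPKM. At 72 h HNRNPU, a nuclear scaffold protein, rose from 415 to 847 FPKM and LIN28B, which blocks let-7 maturation, from 34.4 to 48.5 FPKM, whereas HNRNPF fell from 215 to 114 FPKM and APEX1, the abasic site endonuclease, from 202 to 128 FPKM. The medians were -0.31 and 0.06, and -0.14 and -0.04 with equal FPKM sums. At 3 h 0 of 23 were called, 0 by the normal p, and 0 had an unadjusted p under 0.05 (HNRNPA1, the most abundant, had 1650.02 and 1579 FPKM and HNRNPA2B1 972 and 893 FPKM).

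Known partners of the 10 proteins were called for 4 of 22 tested at 24 h, all lower (5 lower and 0 higher at an unadjusted p under 0.05, and 2 lower by the normal p), and for 7 at 72 h, 4 higher and 3 lower (1 and 1 by the normal p), in the authors' deposited tables. These shares of 18.2% and 31.8% were close to the 17.5% and 31.8% of all tested genes. HCFC1, a chromatin cofactor that binds YY1, fell at 24 h from 56.9 to 27.7 FPKM, and INO80, the ATPase of a remodeller that YY1 joins, from 12.5 to 6.83 FPKM. H3F3B, a gene for the histone H3.3 that ATRX deposits with DAXX, fell from 217 to 147 FPKM. PARP2, the closest relative of PARP1, had 39.9 FPKM in the control and rose to 92.7 FPKM at 72 h, 1.22 on the log2 scale (SE 0.29). PARG, which removes poly(ADP-ribose), fell to 9.73 FPKM against 15.9. HDAC1, a histone deacetylase, rose from 216 to 339 FPKM. The medians were -0.19 at 24 h and 0.01 at 72 h, and with equal FPKM sums they were -0.02 and -0.10, so the sign at 72 h turned. CTCF belongs to this list as well. At 3 h 0 were called and 1 had an unadjusted p under 0.05, with 0 by the normal p.

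Paralogs of the members were called for 3 of 18 tested at 24 h, all lower, and for 4 at 72 h, 3 higher and 1 lower (1 and 1 by the normal p), in the authors' deposited tables. That was 16.7% and 22.2%, beside 17.5% and 31.8% of all tested genes. The medians were -0.14 and 0.13, and 0.03 at both times with equal FPKM sums, so the sign at 24 h turned. SP2, a relative of SP1, fell at 24 h from 11.0 to 6.95 FPKM. NPM2, a relative of NPM1, was called at 24 h (3.15 to 0.383 FPKM) with an SE of 2.90 for a log2 fold change of -3.04. NME4, a mitochondrial relative of NME2, was called higher at 72 h (167 to 216 FPKM). PATZ1, PARP2 and LIN28B, already described, made up the rest, and 4 genes were lower and 0 higher at an unadjusted p under 0.05 at 24 h (1 and 0 by the normal p). At 3 h 0 were called, 0 by the normal p, and 1 had an unadjusted p under 0.05.

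**Figure D4:**
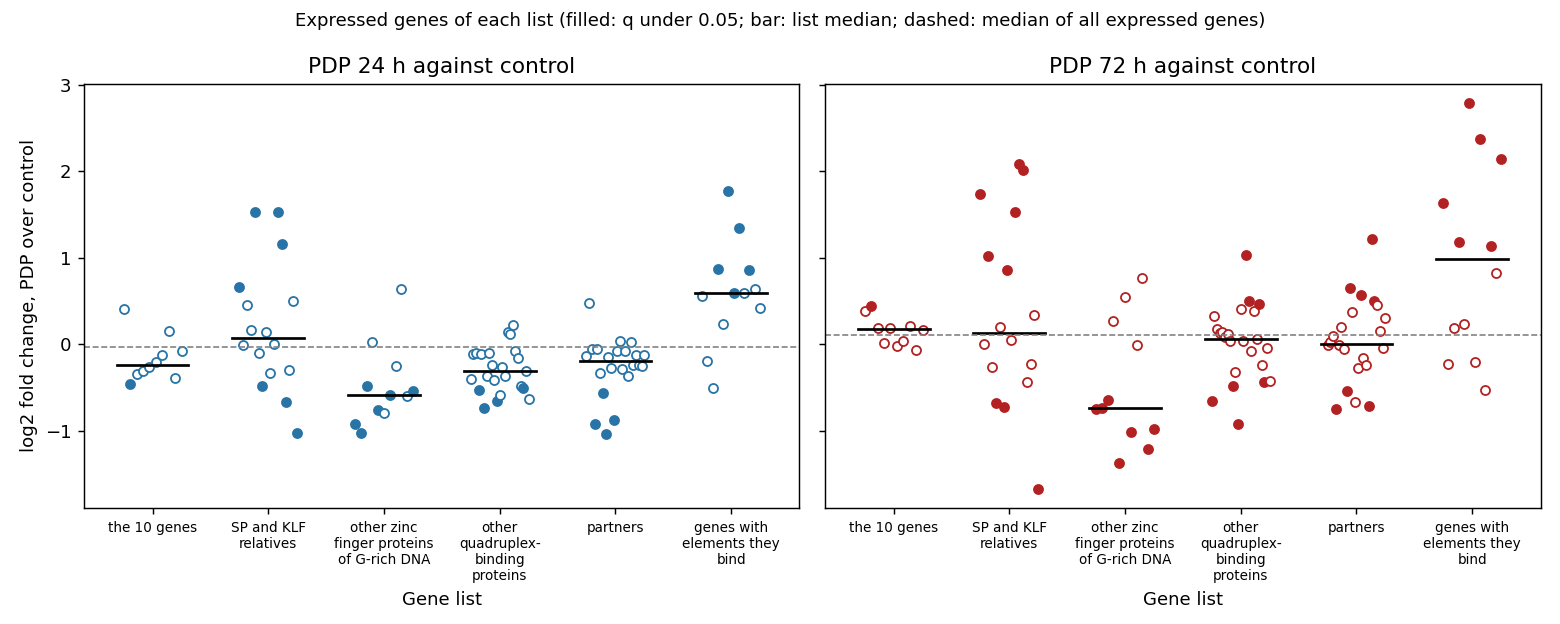
Log2 fold change of every expressed gene among the 10 and in 5 lists at 24 h (left) and 72 h (right); filled circles have a q-value under 0.05, bars are list medians and the dashed line is the median of all expressed genes. The 10 genes lie between -0.45 and 0.44, while the other zinc finger proteins have medians of -0.58 and -0.73 and the genes with bound promoter elements 0.59 and 0.98.

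Some of the genes whose promoters hold elements that these proteins are known to bind were called higher at the later times. Of 12, the authors' deposited tables called 5 higher and 0 lower at 24 h (7 higher and 1 lower at an unadjusted p under 0.05, and 3 and 0 by the normal p), and 6 higher and 0 lower at 72 h (7 and 0, and 6 and 0). That was 41.7% and 50% called higher, beside 9.21% and 19.0% of all tested genes. The medians were 0.59 and 0.98, and 0.76 and 0.88 with equal FPKM sums, and single values went down to -0.50 at 24 h and -0.53 at 72 h. MYB and PDGFA had the largest increases of the 12 at both times, with PDGFA at 1.90 and 4.84 FPKM at 24 h and 1.77 and 9.16 FPKM at 72 h. At 3 h 0 were called, 0 by the normal p, and 0 had an unadjusted p under 0.05. MYC then had 271 and 273 FPKM and HIF1A 65.5 and 67.0 FPKM. MYC was 1 of the 5 called higher at 24 h (281 to 425 FPKM, q = 0.000908 in the authors' deposited table). At 72 h MYC was below its control (262 to 227 FPKM) and not called, with q = 0.286 there.

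Pull-down peaks lay in the loci of 5 of the 10 genes. The authors' deposited list holds 51446 peaks found in both annealed DNA samples, each with a score whose unit is not stated. Of 9115 loci with an expressed protein-coding gene, 58.7% held a peak. SP3, MAZ and YY1 had 1 peak each, PARP1 had 2 and ATRX 4, while SP1, CNBP, NCL, NPM1 and NME2 had none inside or within 5 kb. This came to 1.38 peaks per 100 kb of member loci and 1.97 per 100 kb of the 9115 loci. The loci without a peak were from 14.4 to 36.3 kb long and the median of the 9115 was 51.1 kb, and ATRX had the longest at 281 kb. The highest score was 30.2, for a PARP1 peak at chr1:226405356-226405761, above 97.7% of all peaks and 2.52 kb inside the 5′ end of the locus. The other PARP1 peak was at chr1:226400085-226400518, 7.78 kb inside, with a score of 15.5. The MAZ locus peak at chr16:29814740-29815183 scored 30.1 and lay 8.86 kb from the locus start, in a locus that also holds other genes. No exon positions were used, so the peaks were not placed in exons or introns. The peaks come from purified DNA with no PDP comparison in the list, and thus carry no measure of change at these genes.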

How the data were processed

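RNA was measured in 8 HEK 293T samples (4 groups of 2) from poly(A) libraries, and pull-down DNA in 4 further samples; groups were taken from the labels' titles. The submitters' processing notes name HISAT2 2.0.5, Cufflinks 2.2.1, HOMER 4.9.1 and GRCh38.p7, with no settings. The deposited FPKM are pooled per condition by the authors, in tables with the columns of a Cuffdiff gene test, 1 per time. Each table also gives, as deposited, the authors' own p-value and q-value per gene. The score in the authors' deposited statistic column was divided into the log2 fold change to give the SE, and the authors' deposited peak score is an average with no stated unit. Depth per library is unknown.

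Log2 fold changes were computed from the deposited FPKM without a pseudocount. Recomputing Benjamini-Hochberg values over all genes tested gave the deposited q-values within 5.27e-07. Members and lists were chosen with earlier results of these data known. Named genes were all members, and up to 4 called genes per list and time by size of change. The 2 of highest FPKM were named in a list with no call. Pseudogenes of at least 1 FPKM and the 2 genes nearest in pattern to a called member were named too. MVP, SLC25A29, NME1-NME2 and FAM172A, neighbours in merged loci, were chosen after their values were seen. So were SP9, KLF3, VEZF1, ZNF219 and the later values of MYC. The values of 1 gene that the rule names are not reported here. Of 58083 gene IDs, 56980 matched a reference symbol. Locus starts are given 1-based. Promoter sequences are RefSeq's. Steps were tested on simulated data. Software was Matplotlib 3.10.9, SciPy 1.17.1, pandas 2.3.3, NumPy 2.4.6 and Python 3.11.15.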

Additional observations from a re-analysis of the deposited data

How the results depend on the processing

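No paired analysis was possible because the tables hold 1 pooled value per condition and none per replicate, and for the same reason no replicate could be left out. CNBP was the call at both later times: 0 members were called at 24 h with a q under 0.01 (its q was 0.01001 in the authors' deposited table), and 0 at either time with a log2 change of at least 1 or with a normal p of the statistic, an alternative chosen after seeing the data. With a q under 0.01 the 72 h call remained. The member median at 24 h was -0.24 and became -0.067 with equal FPKM sums. The 72 h median was 0.18 and became 0.073 with equal sums, 0.070 when centred on all expressed genes and 0.042 over the members alone in their locus, the last also chosen after seeing the data; the cause was not tested. All other settings tried for the medians (a pseudocount, FPKM minimum of 5 or none, the mean) moved them by less than 0.1. The 90 log2 fold changes of single members under a pseudocount, equal sums and centring stayed within the implied SE of the value reported, and 8 of them changed sign, none of CNBP. Equal sums and centring add 1 constant per time, at most 0.17 in size, and the lowest member SE was 0.20. A pseudocount changes little at these levels, so staying within the SE was fixed in advance and is no support. Counting only the upper part of peaks by score left 3 members with a peak in place of 5, while the share of the 9115 loci fell from 58.7% to 41.9%. Windows of 1 kb and 5 kb gave 5 members, beside 60.1% and 66.9% of those loci. The quadruplex pattern was found in 6 genes with gaps of up to 12 bases and in 5 before the start alone, against 5. The shares of all genes were 40.5%, 26.2% and 27.8% in that order. Pooled FPKM with no library values set the limit of precision throughout.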
